A study of Ovis aries with 22 samples.

Results

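Oxidative phosphorylation genes are the nuclear genes for the respiratory chain complexes I to IV and for ATP synthase, complex V. They were followed by RNA sequencing of sheep (Ovis aries), in wall tissue of the aortic, pulmonary and autograft roots. Members were chosen by symbol alone: every row of the raw count tables whose symbol starts with NDUFA, NDUFB, NDUFC, NDUFS, NDUFV, UQCR, ATP5, COX4, COX5, COX6, COX7 or COX8, or equals SDHA, SDHB, SDHC, SDHD or CYC1. The rule found 67 of 26200 gene rows. Of these, 36 encode complex I subunits (7 core and 29 accessory), 7 complex I assembly factors of the NDUFAF series, 4 complex II, 1 complex III, 3 complex IV and 14 ATP synthase. The other two, ATP5S and ATP5SL, carry an ATP5 name but are not subunits of ATP synthase. The rule found no row for CYC1, for COX4, COX6, COX7 and COX8, or for any UQCR gene other than UQCRH. Rows for COX5B, NDUFAB1 and ATP5E were missing too. Those genes and the mitochondrially encoded subunits were not analysed here, so complexes III and IV are covered only in part. Complexes I and V are not complete either.

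Complex I oxidises NADH and complex II oxidises succinate, and both pass electrons to ubiquinone. Complexes III and IV carry the electrons on to oxygen, and complexes I, III and IV pump protons that ATP synthase uses to make ATP. Vascular smooth muscle, the main cell of the arterial wall, makes ATP by both glycolysis and respiration.

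The autograft group held sinus wall from 3 sheep that had undergone the Ross procedure, in which the animal's own pulmonary root is moved to the aortic position. The tissue was taken 6 months after that operation. The aortic and pulmonary sinus groups held native tissue from the same 4 sheep, D3 to D6, which the design text describes as not operated. The label of the aortic library of D3 nevertheless gives Ross surgery as its treatment. The labels give no breed, age or sex. Each native animal gave 1 aortic and 1 pulmonary library, and replicates 1 to 4 stand for D3 to D6. An autograft starts out as pulmonary root and takes the place of the aortic one, so the autograft was compared with each and the native sinuses with each other. Both autograft comparisons use the same 3 autograft libraries.

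The 11 libraries were sequenced in 2 runs each, which were added, and held 17380599 to 20741334 counts. The members took between 0.577% of the counts, in autograft replicate 1, and 0.744%, in pulmonary replicate 2. All 67 passed the filter on low counts and were tested. Smooth muscle markers were abundant in every library (8 of 9 listed genes in the table, summed to between 25844 and 89652 CPM, a library's counts scaled to a common total). Of the 8 tested, 3 were lower and 0 higher in the autograft than in pulmonary sinus at an edgeR adjusted p under 0.05, and 1 was lower than in aortic sinus. Over all genes tested, 5.29% were called lower than in pulmonary sinus and 1.43% lower than in aortic sinus. Of 8 T and natural killer cell markers 7 were higher than in pulmonary sinus, of 9 macrophage markers 3, of 8 fibroblast markers 4, of 8 endothelial markers 2 and of 2 B and plasma cell markers tested 2. Against aortic sinus the calls in the higher direction were 5 for T and natural killer cells, 3 for fibroblasts, 1 for B and plasma cells and 0 for macrophages and endothelium with edgeR. The shares of all genes tested called higher were 6.05% against pulmonary and 0.948% against aortic sinus. Heart muscle markers (16 of 17 in the table) summed to between 393 CPM, in aortic replicate 2, and 2787 CPM, in aortic replicate 1. Of 13 tested against pulmonary sinus, 1 was lower in the autograft and 0 higher, against 5.29% of all genes called lower. It was MYH7, at a log2 fold change of -2.39 ± 0.56 (SE, edgeR adjusted p = 0.0256). Within that list aortic replicate 2 was the lowest library for ACTC1, at 135 CPM, and the highest for MYL2, at 20.7 CPM, and CKM, at 14.5 CPM. The part of these cell types in the values below was not tested. In bulk tissue, fewer cells of a type and less RNA per cell cannot be told apart.

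Levels between genes are compared on the authors' FPKM, which divides by transcript length. The median member stood at 79.6 FPKM, against 6.15 FPKM for all genes tested that have a value. ATP synthase had the highest median among the complexes with several members, at 164 FPKM, followed by complex I at 81.4 FPKM, complex IV at 70.8 FPKM and complex II at 41.1 FPKM. Assembly factors, which build complex I but are not part of it, had a median of 6.20 FPKM. ATP5I, a small membrane subunit of ATP synthase, was the highest member at 471 FPKM. UQCRH, the hinge subunit of complex III that helps cytochrome c bind, followed at 443 FPKM, and ATP5B, the catalytic beta subunit of ATP synthase, at 308 FPKM. The lowest subunit gene was the complex I accessory gene NDUFA5 at 7.43 FPKM, and the lowest member was the assembly factor gene NDUFAF2 at 2.21 FPKM. Group medians over all members were 80.3 FPKM in the autograft, 81.4 FPKM in aortic and 80.3 FPKM in pulmonary sinus.

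**Figure D1:**
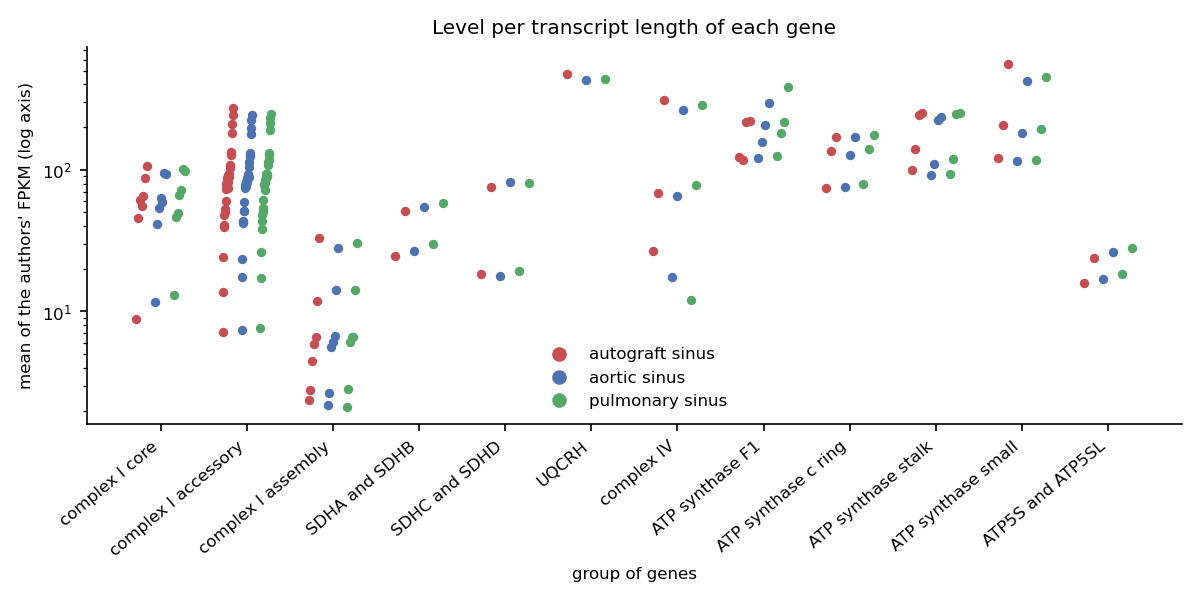
Mean of the authors' FPKM per gene on a log axis, by group of genes on the horizontal axis, with 1 point per gene and colours for the 3 sinus groups. The complex I assembly factors lie low, with a median of 6.20 FPKM, and the highest point group is ATP5I, whose mean over all libraries is 471 FPKM.

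These genes varied less between libraries than the typical gene, and they were also higher expressed. The highest library exceeded the lowest by a median of 1.55 times over the members, against 2.09 times over all genes tested. Their median biological coefficient of variation, the spread between libraries beyond counting error, was 16.0%, against 22.5% for all genes. Median expression was 65.6 CPM for the members and 19.2 CPM for all genes, so the spread and the level differ together.

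The autograft differed little from pulmonary sinus in these genes. NDUFA1 alone of the 67 passed the test, and it was higher in the autograft. Of all 14979 genes tested, 11.3% passed (6.05% higher and 5.29% lower), so the share of members called lay below that of the whole table. At an unadjusted p under 0.05 there were 8 members, 3 higher and 5 lower, against 30.6% of all genes. Fitted log2 fold changes were above 0 for 30 members and below 0 for 37, with a median of -0.04 against 0.00 over all genes tested. The 95% interval of the difference lay within 2-fold in both directions for 66 of 67 members, NDUFA4L2 being the exception, and for 56.9% of all genes. In CPM, autograft and pulmonary libraries were fully separated for 4 members that were higher (NDUFA1, NDUFC1, NDUFV2 and NDUFAF4) and 1 that was lower (ATP5A1). Together these were 7.46% of the members, against 22.1% of all genes.

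Against aortic sinus, no member passed the test with edgeR, where 2.38% of all genes did (0.948% higher and 1.43% lower). The lowest adjusted p among the members was 0.136, for NDUFA1. At an unadjusted p under 0.05 there were 4 members, 3 higher and 1 lower, against 23.0% of all genes, and DESeq2 called none. The log2 fold change was above 0 for 36 members and below 0 for 31, with a median of 0.01. Intervals lay within 2-fold for 66 of 67 members. In CPM, groups did not overlap for 6 members that were higher (NDUFA1, NDUFB4, NDUFB6, NDUFC2, ATP5L and NDUFAF4) and for SDHA, which was lower. Together these were 10.4% of the members, against 20.6% of all genes.

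Native aortic and pulmonary sinus gave no call in any gene, members included, with edgeR or DESeq2. No member had an unadjusted p under 0.05, where 306 of all genes (2.04%) did, and every member had an edgeR adjusted p of 0.99995. The fitted value was below 0, that is lower in aortic sinus, for 52 members and above 0 for 15, with a median of -0.06 against 0.00 for all genes. That median lay between -0.10 and 0.0005 when single libraries were left out, so the lean depended on single libraries. No member separated the 4 aortic from the 4 pulmonary libraries, where 1.42% of all genes did. Intervals lay within 2-fold for 66 of 67 members.

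**Figure D2:**
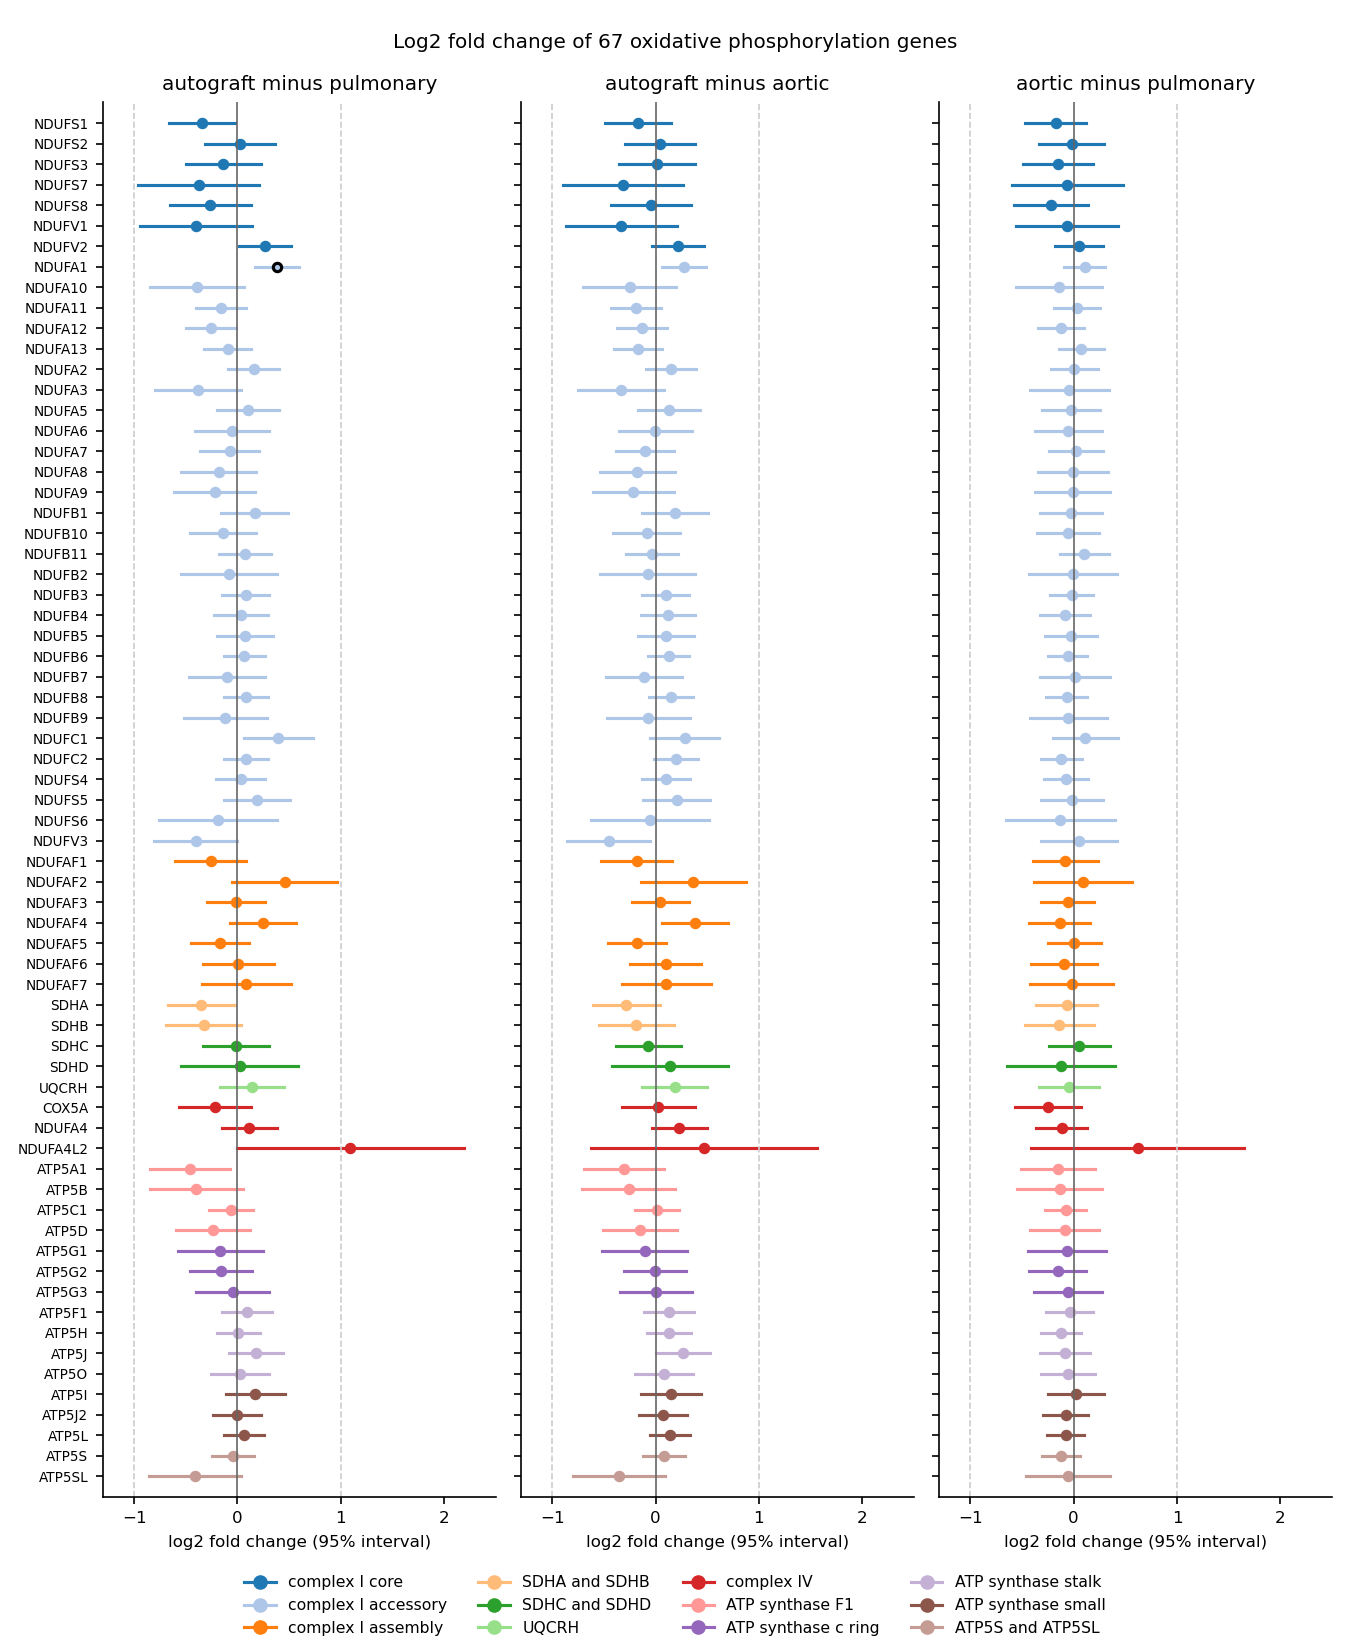
Log2 fold change of each of the 67 genes with its 95% interval (horizontal axis), in 3 panels for the 3 comparisons, coloured by role, with dashed lines at a 2-fold difference and a black ring on a called gene. The ring marks NDUFA1, and NDUFA4L2 is the gene whose intervals cross the 2-fold lines.

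Complex I was described first by its core subunits, the conserved part that carries the flavin and the iron-sulfur clusters. None of the 7 passed the test in any comparison, and the median log2 fold change of the autograft was -0.26 against pulmonary and -0.04 against aortic sinus. NDUFV1, which binds NADH and the flavin, was measured in replicate order at 48.7, 85.99 and 91.5 CPM in the autograft, 108, 96.5, 99.2 and 76.5 in aortic sinus and 76.5, 139, 94.2 and 88.3 in pulmonary sinus. The lowest of these libraries was autograft replicate 1 and the highest was pulmonary replicate 2, and the other 9 lay between 76.5 and 108 CPM. Relative to pulmonary sinus, NDUFV1 gave a log2 fold change of -0.40 ± 0.25 (SE) (edgeR adjusted p = 0.290). NDUFS8, an iron-sulfur subunit near the quinone site, gave 25.99, 39.3 and 38.7 CPM in the autograft, 36.9, 35.2, 37.3 and 33.6 in aortic sinus and 35.2, 54.6, 39.8 and 36.7 in pulmonary sinus. Its groups overlapped, with the same libraries at the ends. For autograft minus pulmonary sinus, edgeR fitted a log2 difference of -0.26 ± 0.18 (SE) with an adjusted p of 0.343.

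Not all core genes followed that order. NDUFS1, the largest iron-sulfur subunit, was at 73.3, 48.7 and 50.4 CPM in the autograft, 62.7, 62.96, 69.1 and 63.6 in aortic sinus and 70.0, 82.9, 65.3 and 73.1 in pulmonary sinus. Autograft replicates 2 and 3 lay below all other libraries, and autograft replicate 1 lay among the native ones. NDUFS1 thus had a fitted log2 fold change of -0.34 ± 0.15 (SE) against pulmonary sinus (edgeR adjusted p = 0.141). Without autograft replicate 1 NDUFS1 was called, at -0.57 with an edgeR adjusted p of 0.0249. That library was the highest autograft one for NDUFS1, so a lower value without it follows from the choice. In that fit 1181 of 15228 genes were called. On log2(FPKM + 1), limma called NDUFS1 at -0.52 with an adjusted p of 0.0284. NDUFV2, the partner of NDUFV1 in the NADH-oxidising module, was at 208, 162 and 170.2 CPM in the autograft, 153, 143, 155 and 168 in aortic sinus and 162, 148, 134 and 153 in pulmonary sinus. All 3 autograft libraries lay above the 4 pulmonary ones, autograft replicate 2 by under 1 CPM. The log2 fold change of NDUFV2 from pulmonary sinus to autograft was 0.27 ± 0.11 (SE), with an edgeR adjusted p of 0.137. On log2(FPKM + 1) it was called by limma, at 0.30 with an adjusted p of 0.0374. NDUFV1, NDUFS1 and NDUFV2 were singled out after their values were seen.

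Among the 29 accessory subunits, which surround the core and are needed for assembly and stability, 1 was called. NDUFA1, a small subunit of the membrane arm encoded on the X chromosome in mammals, was at 36.8, 34.1 and 39.4 CPM in the autograft, 31.7, 28.4, 31.2 and 30.4 in aortic sinus and 30.1, 27.3, 26.2 and 29.3 in pulmonary sinus. The 3 autograft libraries lay above all 8 native ones, and the native groups overlapped. Relative to pulmonary sinus, NDUFA1 gave a log2 fold change of 0.38 ± 0.10 (SE) (edgeR adjusted p = 0.0336). Against aortic sinus it was at 0.27 ± 0.10 (SE) with an edgeR adjusted p of 0.136. The call was a narrow one: its direction held in all 25 alternative settings for the comparison with pulmonary sinus, but the call ended in 15 of them. It ended without any 1 of autograft replicates 1, 2 and 3, pulmonary replicates 2, 3 and 4 and aortic replicates 3 and 4, with edgeR adjusted p between 0.0501 and 0.102. DESeq2 gave 0.38 with an adjusted p of 0.00619.

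NDUFC1 and NDUFC2 are small subunits that sit together in the membrane arm. NDUFC1 was at 27.6, 31.3 and 30.95 CPM in the autograft, 23.6, 18.5, 28.1 and 28.2 in aortic sinus and 22.3, 21.4, 21.4 and 25.95 in pulmonary sinus. The autograft lay above pulmonary sinus throughout and overlapped with aortic sinus. For autograft minus pulmonary sinus, edgeR fitted a log2 difference of 0.40 ± 0.15 (SE) with an adjusted p of 0.108. NDUFC2 was at 58.6, 59.97 and 69.5 CPM in the autograft, 55.4, 56.4, 54.1 and 52.4 in aortic sinus and 64.5, 58.3, 54.1 and 59.9 in pulmonary sinus. It separated the autograft from aortic but not from pulmonary sinus. NDUFC2 thus had a fitted log2 fold change of 0.20 ± 0.10 (SE) against aortic sinus (edgeR adjusted p = 0.244).

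NDUFV3, a small accessory subunit beside NDUFV1, had the smallest p in the lower direction among complex I genes against aortic sinus. It was at 28.2, 39.5 and 35.6 CPM in the autograft, 59.6, 43.7, 37.2 and 48.4 in aortic sinus and 39.1, 55.7, 40.7 and 46.8 in pulmonary sinus. Autograft replicate 1 was the lowest library and the groups overlapped. The log2 fold change of NDUFV3 from aortic sinus to autograft was -0.45 ± 0.18 (SE), with an edgeR adjusted p of 0.174, and against pulmonary sinus -0.40. NDUFS5 and NDUFB7, the accessory genes of highest FPKM, stood at different places in autograft replicate 1. NDUFS5 was at 190.1, 163 and 192 CPM in the autograft, 194, 136, 148 and 153 in aortic sinus and 169, 180.2, 132 and 157 in pulmonary sinus. NDUFB7 was at 56.4, 78.7 and 88.1 CPM in the autograft, 92.5, 73.01, 82.8 and 73.7 in aortic sinus and 73.6, 97.3, 70.1 and 78.2 in pulmonary sinus. For NDUFB7 autograft replicate 1 was the lowest of the 11 libraries, and for NDUFS5 it was among the highest. NDUFA5, the lowest by FPKM, was at 16.3, 14.2 and 13.2 CPM in the autograft, 13.3, 11.4, 14.9 and 13.7 in aortic sinus and 13.95, 13.1, 13.1 and 14.2 in pulmonary sinus, with all groups overlapping.

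No assembly factor gene passed the test. NDUFAF4, which acts in building the matrix arm of complex I, was at 10.01, 10.1 and 10.1 CPM in the autograft, 7.10, 7.10, 8.55 and 8.06 in aortic sinus and 8.53, 8.85, 7.92 and 8.52 in pulmonary sinus. In CPM the autograft libraries lay close together and above every native library. The authors' FPKM did not show that difference. Its mean was 2.79 ± 0.37 (SD, n = 3) in the autograft, 2.68 ± 0.24 (SD, n = 4) in aortic and 2.83 ± 0.33 (SD, n = 4) in pulmonary sinus. Relative to aortic sinus, NDUFAF4 gave a log2 fold change of 0.39 ± 0.15 (SE) (edgeR adjusted p = 0.152). Against pulmonary sinus its log2 fold change was 0.25. It lay between -0.02 and 0.30 under the alternatives other than leaving out single libraries. NDUFAF2, a paralog of the subunit NDUFA12, was at 10.6, 6.40 and 9.14 CPM in the autograft, 8.22, 6.25, 6.20 and 6.34 in aortic sinus and 8.19, 5.14, 6.18 and 5.89 in pulmonary sinus, with autograft replicate 1 highest and the D3 library highest in each native group. For autograft minus pulmonary sinus, edgeR fitted a log2 difference of 0.46 ± 0.23 (SE) with an adjusted p of 0.206. NDUFAF3, a partner of NDUFAF4, was at 23.8, 23.9 and 30.7 CPM in the autograft, 25.2, 22.9, 24.2 and 29.1 in aortic sinus and 26.5, 27.9, 24.7 and 26.5 in pulmonary sinus. NDUFAF5, which modifies NDUFS7, was at 13.3, 15.5 and 13.3 CPM in the autograft, 17.1, 15.1, 17.05 and 14.4 in aortic sinus and 14.5, 16.4, 16.9 and 15.5 in pulmonary sinus. NDUFAF6 was at 11.5, 11.4 and 14.7 CPM in the autograft, 12.5, 9.50, 11.7 and 13.1 in aortic sinus and 11.7, 12.4, 13.2 and 12.5 in pulmonary sinus. For these last 3 genes the groups overlapped in all comparisons.

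**Figure D3:**
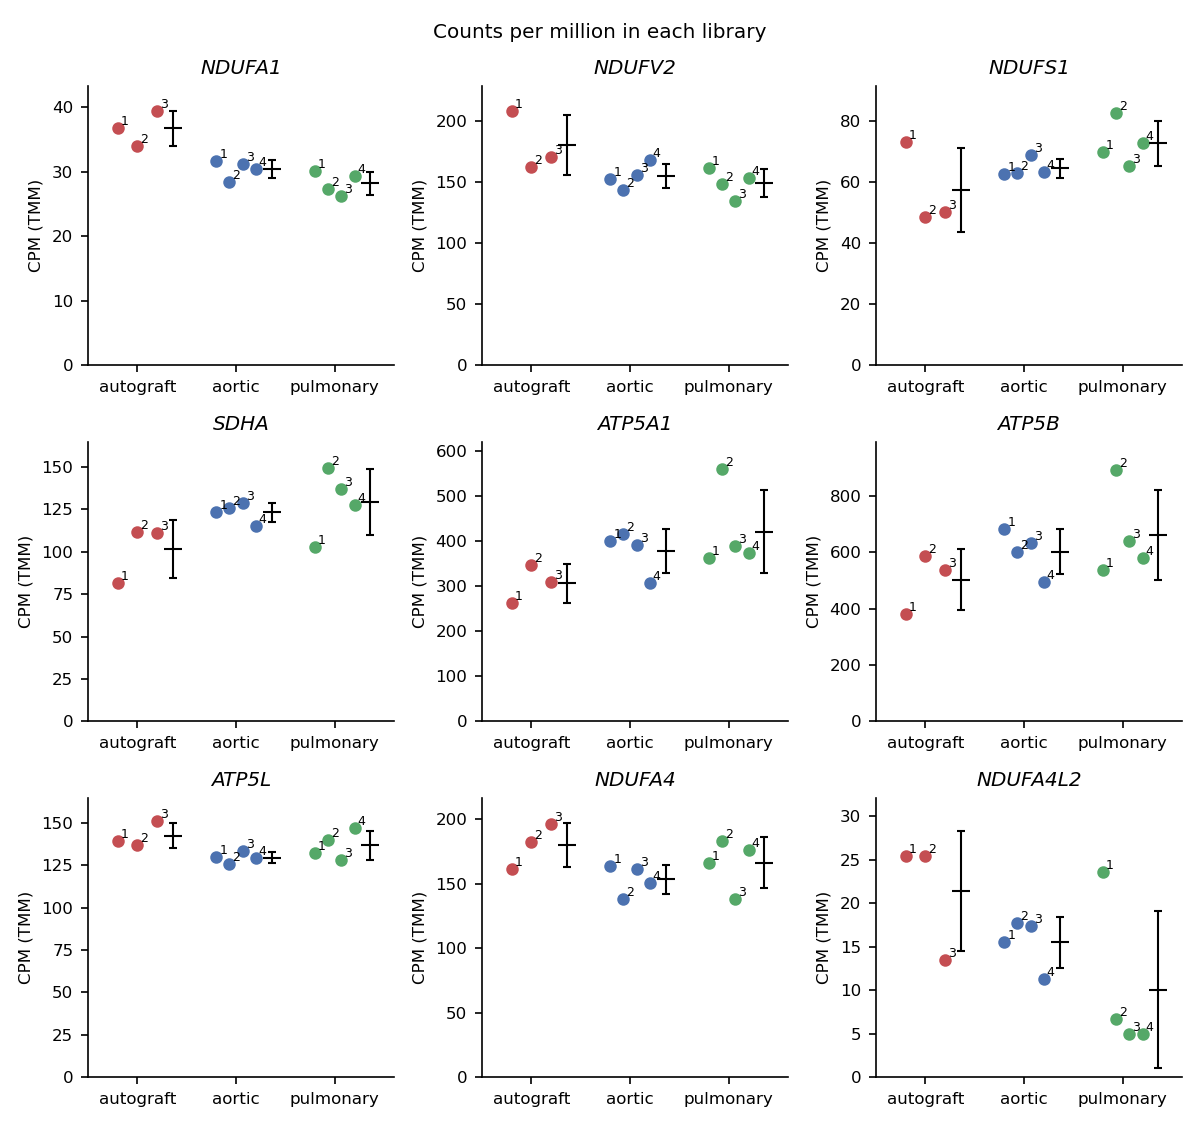
CPM after TMM scaling (vertical axis, from 0) in each library of the 3 groups (horizontal axis) for 9 genes, with the replicate number beside each point and a bar for mean ± SD. NDUFA1 is higher in all 3 autograft libraries, from 34.1 to 39.4 CPM, than in the 8 native ones, and NDUFA4L2 shows pulmonary replicate 1 at 23.6 CPM above the other pulmonary libraries.

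Complex II, succinate dehydrogenase, is both a citric acid cycle enzyme and an entry point to the chain. Against pulmonary sinus the median log2 fold change was -0.34 for the catalytic subunits and 0.003 for the membrane anchors. With all libraries no complex II gene was called, and the difference between these subunits was not tested. SDHA, the flavoprotein, was at 81.7, 112 and 111 CPM in the autograft, 124, 126, 129 and 115 in aortic sinus and 103, 149, 137 and 128 in pulmonary sinus. Every autograft library lay below every aortic one, while pulmonary replicate 1 lay within the autograft range. SDHA thus had a fitted log2 fold change of -0.35 ± 0.15 (SE) against pulmonary sinus (edgeR adjusted p = 0.134), and against aortic sinus -0.28 ± 0.15 (SE) with 0.274. Without pulmonary replicate 1 it was called against pulmonary sinus, at -0.46 with an edgeR adjusted p of 0.0397. That library was the lowest pulmonary one for SDHA, so a larger difference without it follows from the choice. In that fit 2753 of 14888 genes were called, against 1699 of 14979 with all libraries.

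SDHB, the iron-sulfur subunit, was at 61.7, 88.5 and 96.03 CPM in the autograft, 98.4, 98.1, 84.7 and 92.7 in aortic sinus and 97.4, 127, 86.4 and 102 in pulmonary sinus. Autograft replicate 1 lay lowest and pulmonary replicate 2 highest, and the other libraries overlapped. The log2 fold change of SDHB from pulmonary sinus to autograft was -0.33 ± 0.17 (SE), with an edgeR adjusted p of 0.205. The membrane anchors SDHC and SDHD had log2 fold changes of -0.01 and 0.02 in the same comparison. SDHC was at 109.8, 145 and 131 CPM in the autograft, 158, 128, 122 and 131 in aortic sinus and 134, 153, 109.5 and 122 in pulmonary sinus. SDHD was at 17.9, 37.6 and 34.2 CPM in the autograft, 23.5, 21.2, 32.02 and 31.8 in aortic sinus and 22.2, 27.4, 33.9 and 34.4 in pulmonary sinus, with wide ranges in every group.

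UQCRH was the only complex III gene. It was at 325, 314 and 387 CPM in the autograft, 328, 257, 309 and 307 in aortic sinus and 349, 285, 257 and 349.8 in pulmonary sinus. Autograft replicate 3 was the highest library, and the groups overlapped. Relative to pulmonary sinus, UQCRH gave a log2 fold change of 0.14 ± 0.14 (SE) (edgeR adjusted p = 0.538).

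Complex IV was represented by COX5A, a nuclear subunit bound to the catalytic core, and by NDUFA4 and NDUFA4L2. NDUFA4 keeps a complex I name but is a subunit of complex IV, and NDUFA4L2 is its paralog, known as a target of hypoxia-inducible factor. COX5A was at 45.0, 59.04 and 56.8 CPM in the autograft, 55.5, 49.01, 51.9 and 53.9 in aortic sinus and 51.01, 81.1, 54.1 and 63.5 in pulmonary sinus. Pulmonary replicate 2 stood highest and autograft replicate 1 lowest. For autograft minus pulmonary sinus, edgeR fitted a log2 difference of -0.22 ± 0.16 (SE) with an adjusted p of 0.380.

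NDUFA4L2 differed most between libraries of all members, with the highest library 5.09 times the lowest. It was at 25.4, 25.5 and 13.5 CPM in the autograft, 15.6, 17.8, 17.4 and 11.3 in aortic sinus and 23.6, 6.74, 5.01 and 5.03 in pulmonary sinus. Pulmonary replicates 2 to 4 lay below all other libraries, and pulmonary replicate 1 lay among the autograft ones. NDUFA4L2 thus had a fitted log2 fold change of 1.09 ± 0.50 (SE) against pulmonary sinus (edgeR adjusted p = 0.166). Without pulmonary replicate 1 it was called, at 1.92 with an edgeR adjusted p of 0.00408, and without animal D3 at 1.94 with 0.00721. Pulmonary replicate 1, from D3, was the highest pulmonary library for this gene. Larger values without it therefore follow from the choice and test nothing. NDUFA4 was at 162, 182 and 197 CPM in the autograft, 164, 138, 161 and 151 in aortic sinus and 166, 184, 139 and 177 in pulmonary sinus. It did not show that order, and its groups overlapped. The log2 fold change of NDUFA4 from pulmonary sinus to autograft was 0.12 ± 0.12 (SE), with an edgeR adjusted p of 0.553.

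NDUFA4L2 as a share of the counts of both paralogs gives a value that needs no scaling. It was 13.6%, 12.3% and 6.43% in the autograft, 8.69%, 11.4%, 9.73% and 6.99% in aortic sinus and 12.4%, 3.54%, 3.49% and 2.77% in pulmonary sinus. Again pulmonary replicate 1 stood with the other 2 groups. The mean log2 ratio of NDUFA4L2 to NDUFA4 (offset of 2 counts) was -3.12 ± 0.64 (SD, n = 3) in the autograft, -3.32 ± 0.32 (SD, n = 4) in aortic sinus and -4.36 ± 1.04 (SD, n = 4) in pulmonary sinus. The difference was 1.24 between autograft and pulmonary sinus (two-sided exact permutation p = 0.171, adjusted over the 3 comparisons 0.257). It was 0.20 between autograft and aortic sinus (exact permutation p = 0.600) and 1.04 between aortic and pulmonary sinus (exact permutation p = 0.143, adjusted 0.257). The smallest p these tests can give is 0.0286. Without pulmonary replicate 1 the aortic to pulmonary difference was 1.56, with that smallest p (exact permutation p = 0.0286, not adjusted), and the autograft to pulmonary difference 1.75. Only this pulmonary library had a ratio that was not below those of the aortic libraries. Without it the 2 groups separate fully, so that p follows from the choice and tests nothing. Pulmonary replicate 1 is also the library flagged below as far from the rest of its group in this ratio. The permutations did not keep the pairing of aortic and pulmonary libraries by animal, so their p does not describe the paired design.

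Markers of endothelium and pericytes were read beside these 2 paralogs. Pericyte markers (7 of 7 in the table) summed to 1313.5, 724.5 and 904.3 CPM in the autograft, 920 to 1317 CPM in aortic and 900 to 1193 CPM in pulmonary sinus, so the groups overlapped. Of 6 tested, 1 was lower in the autograft than in pulmonary sinus and 0 higher, against 5.29% of all genes called lower. That gene was ABCC9, at a log2 fold change of -0.42 ± 0.12 (SE, edgeR adjusted p = 0.0457). Endothelial markers (8 of 9 in the table) summed to 141, 1624 and 955 CPM in the autograft and 237 to 589 CPM in aortic sinus. In pulmonary sinus they summed to 414 CPM in replicate 1 and 118 to 123 CPM in the other three. Pulmonary replicate 1 was thus the highest of its group in both NDUFA4L2 and the endothelial sum, while autograft replicate 1 was high in NDUFA4L2 and lowest of the autografts in that sum. Pulmonary replicate 1 was also the highest of its group for white adipocyte markers (290.0 CPM against 86.99 to 103 CPM), macrophage markers (294 CPM against 53.2 to 264 CPM), T and natural killer cell markers (7.01 CPM against 1.92 to 2.74 CPM) and fibroblast markers (13944 CPM against 5536 to 12027 CPM). No endothelial or pericyte marker was at 0 in every library, and the part of these cell types in the NDUFA4L2 values was not tested. Of 13 hypoxia response genes 2 were higher in the autograft than in pulmonary sinus, against 6.05% of all genes called higher, and 0 differed from aortic sinus with edgeR. The 2 were NDRG1 at 1.39 ± 0.28 (SE, edgeR adjusted p = 0.0167) and HIF1A, the factor's alpha subunit, at 0.88 ± 0.24 (SE, edgeR adjusted p = 0.0412). The median log2 fold change of the hypoxia list was 0.44 against pulmonary and 0.46 against aortic sinus.

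ATP synthase was split into its catalytic F1 head, the membrane c ring, the peripheral stalk and small membrane subunits. No gene of the 14 was called in any comparison. Against pulmonary sinus the 4 F1 genes all had values below 0, with a median log2 fold change of -0.32, and the 4 stalk genes all had values above 0, with a median of 0.05. ATP5A1, the alpha subunit of F1, was at 261, 347 and 309 CPM in the autograft, 399, 416, 391 and 307 in aortic sinus and 362, 559, 389 and 374 in pulmonary sinus. All 3 autograft libraries lay below all 4 pulmonary ones, and they overlapped with the aortic ones. Relative to pulmonary sinus, ATP5A1 gave a log2 fold change of -0.46 ± 0.18 (SE) (edgeR adjusted p = 0.110). ATP5B was at 381, 588 and 539 CPM in the autograft, 682, 599.7, 634 and 494 in aortic sinus and 536, 892, 639 and 579 in pulmonary sinus. Autograft replicate 1 was again lowest and pulmonary replicate 2 highest. For autograft minus pulmonary sinus, edgeR fitted a log2 difference of -0.40 ± 0.21 (SE) with an adjusted p of 0.216.

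ATP5G1, ATP5G2 and ATP5G3 encode the same mature c-ring protein from separate genes. ATP5G1 was at 57.8, 83.02 and 84.3 CPM in the autograft, 96.95, 69.9, 87.7 and 67.7 in aortic sinus and 80.4, 107, 74.1 and 75.3 in pulmonary sinus. ATP5G2 was at 85.9, 112 and 117 CPM in the autograft, 106, 115, 97.9 and 102 in aortic sinus and 102, 135, 109 and 122 in pulmonary sinus. For both genes autograft replicate 1 was the lowest library and pulmonary replicate 2 the highest. The c-ring median was -0.16 against pulmonary and -0.01 against aortic sinus. ATP5J and ATP5H belong to the stalk that holds the head still. ATP5J was at 136, 148 and 162 CPM in the autograft, 139, 111, 122 and 121 in aortic sinus and 126, 147, 115 and 135 in pulmonary sinus, and 2 of the 3 autograft libraries exceeded all aortic ones. ATP5J thus had a fitted log2 fold change of 0.27 ± 0.12 (SE) against aortic sinus (edgeR adjusted p = 0.204). ATP5H was at 158, 148 and 173 CPM in the autograft, 148, 142, 147 and 147 in aortic sinus and 153, 173, 146 and 162 in pulmonary sinus, with all groups overlapping.

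The small membrane subunits include proteins that help pair the enzyme into dimers. ATP5I was at 134, 146 and 162 CPM in the autograft, 143, 125, 132 and 129.6 in aortic sinus and 154, 131, 104 and 133 in pulmonary sinus, and pulmonary replicate 3 was the lowest library. ATP5L, named for its lack of overlap with aortic sinus after its values were seen, differed by 1.20 times between the lowest and the highest library. It was at 139, 137 and 151 CPM in the autograft, 130.0, 125, 133 and 129 in aortic sinus and 132, 139.6, 128 and 147 in pulmonary sinus, so the autograft lay above aortic sinus and overlapped with pulmonary sinus. The log2 fold change of ATP5L from aortic sinus to autograft was 0.14 ± 0.09 (SE), with an edgeR adjusted p of 0.378. Outside the enzyme, ATP5S was at 40.6, 36.3 and 39.9 CPM in the autograft, 35.1, 34.7, 36.8 and 40.5 in aortic sinus and 41.1, 40.8, 38.3 and 40.1 in pulmonary sinus. ATP5SL, now named DMAC2 for a part in complex I assembly, was at 26.8, 38.9 and 33.8 CPM in the autograft, 46.9, 42.8, 47.2 and 32.6 in aortic sinus and 36.3, 54.2, 51.6 and 34.1 in pulmonary sinus. ATP5SL was like the F1 genes in having autograft replicate 1 lowest and pulmonary replicate 2 highest. Relative to pulmonary sinus, ATP5SL gave a log2 fold change of -0.41 ± 0.20 (SE) (edgeR adjusted p = 0.198).

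That order of libraries recurred across complexes. Autograft replicate 1 was the lowest of the 11 libraries for 31 of 67 members (46.3%), against 20.2% of all genes tested, and pulmonary replicate 2 was the highest for 29 (43.3%), against 13.0% of all genes. For 26 members both were true, which is 83.9% of the first list and 89.7% of the second, and both were true for 7.10% of all genes. The 26 included all 4 F1 genes, all 3 c-ring genes, SDHA and SDHB, 4 of 7 core and 11 of 29 accessory complex I genes. They included no stalk gene, no small membrane subunit gene and no assembly factor gene. Some lists around the chain showed the same ends. Autograft replicate 1 was lowest for 42.3% and pulmonary replicate 2 highest for 61.5% of 26 genes of pyruvate oxidation and the citric acid cycle. Of 9 ADP, phosphate and proton carriers the shares were 44.4% and 44.4%, and of 21 glycolysis genes 42.9% and 33.3%, so the order of libraries was not particular to the members. Of 6 electron carriers and transferases they were 66.7% and 33.3%. Other lists lay nearer to all genes. The shares were 24.3% and 20.3% of 74 mitochondrial ribosome genes and 21.7% and 17.4% of 23 assembly factors outside the rule. Of 16 biogenesis regulators they were 25% and 25%, and of 13 hypoxia response genes 15.4% and 7.69%. The pattern was noticed in these data and is given without a test.

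As a distance from the median library, F1 genes stood at a median log2 deviation of -0.51 in autograft replicate 1 and 0.50 in pulmonary replicate 2. Core complex I genes stood at -0.43 and 0.43, and SDHA with SDHB at -0.62 and 0.33. The anchors SDHC and SDHD stood at -0.54 and 0.01. Stalk genes stood at 0.04 and 0.08, and small membrane subunits at 0.06 and 0.00. The same libraries were the ends of the smooth muscle marker sum, at 25844 CPM in autograft replicate 1 and 89652 CPM in pulmonary replicate 2, with the other 9 between 49834 and 74080 CPM. The part of smooth muscle content in these gene values was not tested. Without both libraries, an alternative chosen after seeing the data, the difference between autograft and pulmonary sinus was a median log2 of -0.02 for F1, 0.11 for the core genes, -0.09 for SDHA with SDHB and 0.08 for all members. These were the lowest autograft and the highest pulmonary library for many of these genes. Values that move upwards without them therefore follow from the choice and test nothing. Either library alone also moved single genes. The fitted log2 fold change of NDUFV1 against pulmonary sinus, -0.40 over all libraries, was -0.18 without autograft replicate 1 and -0.20 without pulmonary replicate 2. That of NDUFS8, -0.26 over all libraries, was -0.10 without either one. COX5A, at -0.22 over all libraries, stood at -0.12 and -0.07, SDHB, at -0.33, stood at -0.17 and -0.21, and ATP5B, at -0.40, stood at -0.24 and -0.22. ATP5A1 moved from -0.46 to -0.29 without pulmonary replicate 2. Leaving out another single library moved values the other way, to as low as -0.57 for NDUFV1 and -0.57 for ATP5A1. SDHA moved from -0.35 to -0.23, NDUFV2 from 0.27 to 0.15 and NDUFAF2 from 0.46 to 0.28 without autograft replicate 1. Without both libraries NDUFS1 was the 1 member called, at -0.49 with an edgeR adjusted p of 0.0456.

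**Figure D4:**
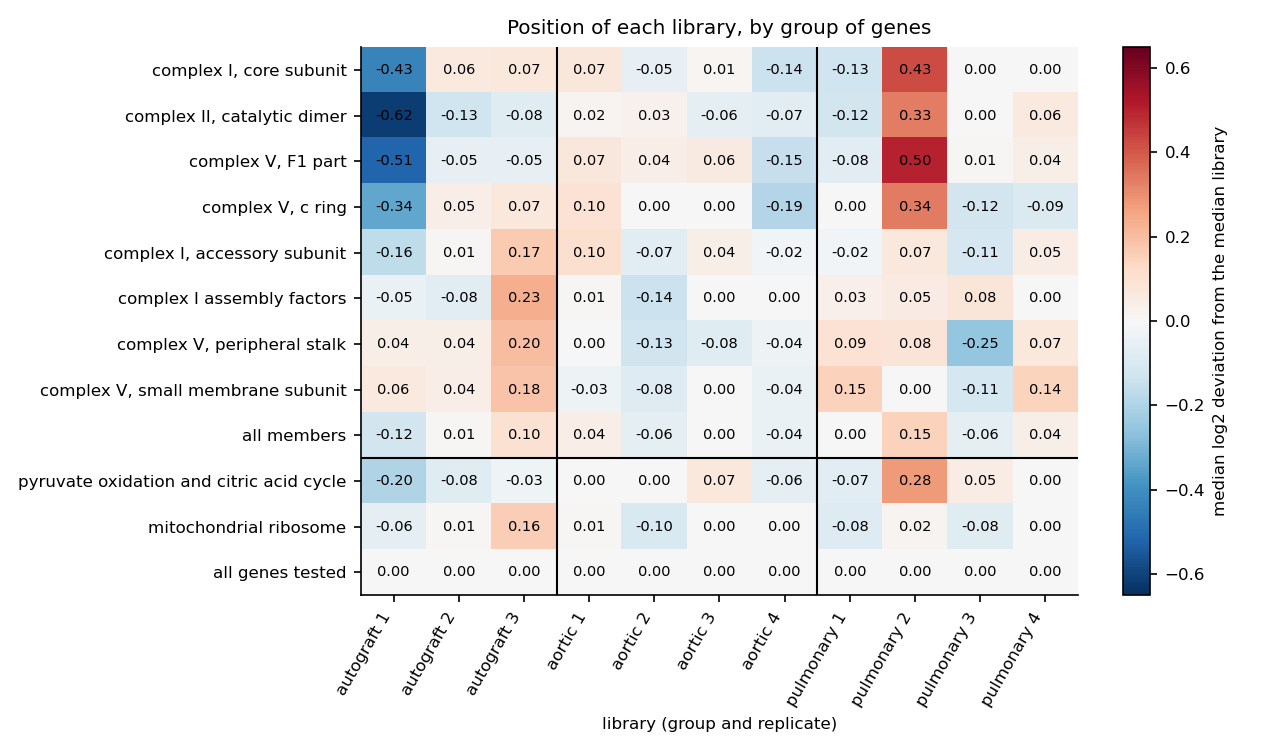
Median log2 deviation from the median library (colour and printed value) for groups of genes (rows) in the 11 libraries (columns). Autograft replicate 1 and pulmonary replicate 2 stand at opposite ends for the F1 genes, at -0.51 and 0.50, and near 0 for the peripheral stalk genes, at 0.04 and 0.08.

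Genes around the chain were counted from lists by function. Of 23 assembly factors outside the rule, 2 were higher in the autograft than in pulmonary sinus and 0 lower, against 6.05% of all genes called higher, with a median log2 fold change of 0.05. These were SDHAF2, which helps flavinate SDHA, at 0.37 ± 0.10 (SE, edgeR adjusted p = 0.0364), and TMEM70, an ATP synthase assembly factor, at 0.52 ± 0.14 (SE, edgeR adjusted p = 0.0407). TMEM70 was at 30.8, 34.2 and 31.1 CPM in the autograft, 16.9, 23.3, 21.3 and 21.5 CPM in aortic and 24.1, 18.4, 25.2 and 21.7 CPM in pulmonary sinus. It was the 1 gene of these lists also called against aortic sinus, at 0.63 ± 0.14 (SE) (edgeR adjusted p = 0.0472). Of 74 mitochondrial ribosome genes, 2 were higher and 0 lower, a smaller share than the 6.05% of all genes called higher, with a median of 0.09. MRPL32 was at 0.51 ± 0.12 (SE, edgeR adjusted p = 0.0262) and MRPL33 at 0.68 ± 0.18 (SE, edgeR adjusted p = 0.0349).

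Of 26 genes of pyruvate oxidation and the citric acid cycle, 2 were lower in the autograft than in pulmonary sinus and 0 higher, against 5.29% of all genes called lower, with a median of -0.21. CS, citrate synthase, was at 130.3, 176 and 142 CPM in the autograft and at 206, 331, 231 and 215 CPM in pulmonary sinus, a log2 fold change of -0.72 ± 0.18 (SE, edgeR adjusted p = 0.0301). SUCLA2, a subunit of succinyl-CoA ligase, was at -0.38 ± 0.11 (SE, edgeR adjusted p = 0.0453). Of 6 electron carriers and transferases 2 were lower, against the same 5.29% of all genes, with a median of -0.19. SUOX, the sulfite oxidase that feeds cytochrome c, was at -0.50 ± 0.11 (SE, edgeR adjusted p = 0.0239), and ETFDH, which passes electrons from fatty acid oxidation to ubiquinone, at -0.49 ± 0.12 (SE, edgeR adjusted p = 0.0332).

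Of 21 glycolysis genes 2 were lower than in pulmonary sinus, against 5.29% of all genes called lower, with a median of -0.18. HK1, a hexokinase, was at 125, 136 and 117 CPM in the autograft and at 164, 202, 188 and 177 CPM in pulmonary sinus, a log2 fold change of -0.54 ± 0.10 (SE, edgeR adjusted p = 0.0144). PFKM, the muscle phosphofructokinase, was at -1.24 ± 0.29 (SE, edgeR adjusted p = 0.0243). Of 16 biogenesis regulators 2 were lower, against the same share of all genes: POLG, the mitochondrial DNA polymerase, at -0.35 ± 0.09 (SE, edgeR adjusted p = 0.0337), and PPARGC1B, a coactivator of respiratory genes, at -1.60 ± 0.42 (SE, edgeR adjusted p = 0.0369). The 9 ADP, phosphate and proton carriers tested held no call. Of the 14 calls against pulmonary sinus in the lists around the chain, hypoxia response included, only that of HK1 held in all 11 fits that left out a single library, and it ended when only the 2 groups were fitted (edgeR adjusted p = 0.0584) and without autograft replicate 1 and pulmonary replicate 2 together (edgeR adjusted p = 0.0607). Leaving out pulmonary replicate 3 ended 13 of the 14 calls, pulmonary replicate 2 and autograft replicate 2 ended 12 each, autograft replicate 1 ended 11, and any other library ended 1 to 6. The call of TMEM70 against aortic sinus ended in 9 of the 11 fits. Against aortic sinus 0 genes of the fuel, carrier and regulator lists were called with edgeR, and between the native sinuses 0 of any list.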

How the data were processed

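TRIzol was used for RNA extraction and a TruSeq kit for library preparation, per the labels' protocols. Per the submitters' processing notes the tools were STAR 2.5.2b, Bowtie2 2.3.3.1, cutadapt and featureCounts 1.5.3, without their roles. Build, annotation and strand setting: not given in the sources used here. Reads of overlapping genes and of near-identical copies, such as processed pseudogenes of these subunits, can therefore not be separated, and coordinates are left out. The authors deposited raw counts per gene symbol, 1 table per run. Counts on an unnamed row (0.000522% of a library or less) were left out. The deposited FPKM tables, also 1 per run, hold the authors' values for 15272 and 15080 genes, by a route that no label describes. For 96.0% of genes in run 1 and 93.4% in run 2 they are multiples of a step per gene. For the other genes the smallest gap between values stood in for the step. The multiples' quantiles over all genes match between libraries (within 1.05 times), so the distributions had been equalised. The FPKM served for levels and as an alternative unit. Symbols of 51 members matched RefSeq sheep names (assembly ARS-UI_Ramb_v3.0), 4 matched only a synonym and 12 matched none.

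Both runs of a library were added, since the chi-square per gene between them was at most 1.52, while for pairs of libraries within a group it was at least 31.9. Animals are the replicates per the labels. All 11 libraries entered 1 edgeR quasi-likelihood model without a block (edgeR 4.0.16 with limma 3.58.1 and DESeq2 1.42.0 in R 4.3.3), scaled by TMM and filtered with filterByExpr, which kept 14979 genes. Benjamini-Hochberg adjustment ran over all of them, with a threshold of 0.05. Fold changes carry standard errors (SE). The script was tested on simulated data. Of 7 listed isoform pairs, NDUFA4L2 with NDUFA4 was the 1 in the table.

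Named genes were members called in any comparison, the isoform pair, the 2 members with the smallest p per complex and comparison, and the 2 highest and the 1 lowest by FPKM per complex, 30 in all, and up to 2 genes per related list. Members and lists were chosen with earlier results of these data known. Alternatives changed the scaling, filter, tool, unit, run, block and libraries. The setting without autograft replicate 1 and pulmonary replicate 2 was chosen after seeing the data.

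Native libraries of the same number share an animal per the labels. Their deviations from the group means correlated at -0.18 (D3), -0.135 (D4), 0.433 (D5) and 0.451 (D6). Aortic and pulmonary libraries of different animals correlated at -0.292 to 0.396.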

Additional observations from a re-analysis of the deposited data

Results flagged for a closer look

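Of 64 groups of 4 libraries examined for a single library far from the others, 4 had one. Chance alone marks about 1 in 20, so the number found is near that share. The flags of NDUFA4L2 and of its ratio to NDUFA4 rest on the same NDUFA4L2 counts. ATP5A1, the ATP synthase alpha subunit, stood at 559 CPM in pulmonary replicate 2, against 362 to 389 CPM in the other 3 pulmonary libraries. That library was also the highest of the 11 for 29 of the 67 members. NDUFA4L2 stood at 23.6 CPM in pulmonary replicate 1, against 5.01 to 6.74 CPM in the others. The log2 ratio of NDUFA4L2 to NDUFA4 in the same library was -2.81, against -5.10 to -4.75. NDUFAF2 stood at 8.22 CPM in aortic replicate 1, whose label gives Ross surgery, against 6.20 to 6.34 CPM in the other 3 aortic libraries.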

How the results depend on the processing

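For autograft against pulmonary sinus, 1 member was called. The count was 2 on log2(FPKM + 0.1), 2 on log2(FPKM + 1), 2 without animal D3 and 2 without autograft replicate 1 and pulmonary replicate 1. NDUFA1 was not among those called on the 2 FPKM units (limma adjusted p = 0.0557 and 0.0590). Nor was it called without autograft replicate 1 and pulmonary replicate 1 (edgeR adjusted p = 0.0516). The count was 0 without the filter on low counts, 0 with only the 2 groups fitted and 0 on run 1 alone, and between 0 and 3 when single libraries were left out. The causes were not tested. Against aortic sinus and between the native sinuses the count was 0 in all settings run. The median over members for autograft minus pulmonary sinus lay between -0.10 and 0.01 when single libraries were left out, and at 0.080 without autograft replicate 1 and pulmonary replicate 2. The NDUFA4L2 to NDUFA4 difference between aortic and pulmonary sinus lay between 0.79 and 1.56 when single libraries were left out, the highest without pulmonary replicate 1.

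With the animal as a replicate block (random effect, limma-voom, consensus correlation 0.1215) 1 member was called against pulmonary sinus and 0 in the other comparisons, so the block changed no member's call. Over all genes, 1699 calls against pulmonary sinus became 3022 with DESeq2, 479 with 2 groups only, 452 without autograft replicate 2, 2753, 522, 505 and 1004 without pulmonary replicates 1 to 4, and 499 without autograft replicate 1 and pulmonary replicate 2. The 356 against aortic sinus became 1464 with DESeq2, 110 without animal D3, 199 without autograft replicate 1 and pulmonary replicate 2, and 25 to 576 when single libraries were left out. Of 5056 values of uncalled members under alternatives, 395 (7.81%) had the other sign. The lowest counts per library among the members were 86 for NDUFS6, 88 for NDUFA4L2 and 90 for NDUFAF2, and depth as a limit was not tested.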
